A study of Equus caballus with 10 samples.

Results

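The STAT and SOCS genes were examined in equine tenocytes, the fibroblast-like cells of tendon, exposed to PF-06650833, a small molecule that inhibits the kinase IRAK4, with or without interleukin 1 beta (IL-1β). The members are 9 genes chosen by name, namely the transcription factor genes STAT2, STAT3, STAT4, STAT5A and STAT6 and the inhibitor genes SOCS1, SOCS2, SOCS3 and CISH. All 9 are among the 29196 genes of the deposited table, and all 9 passed the filter on low values that left 17992 genes for testing. Primary tendon cells of horses, isolated after death and passaged, were held in collagen gels for 14 days, and 5 lines from 5 donors gave 1 library to each group. The group given PF-06650833 alone, called the PF group, received the inhibitor at 100 nM every day. The group given IL-1β plus PF-06650833, called the IL-1β/PF group, received the same inhibitor and IL-1β at 17 ng/ml with the changes of medium. Both groups therefore carry the inhibitor, and cultures without it were not analysed here, so no value below describes an effect of PF-06650833. The lines are called line 1 to line 5.

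Cytokines of the IL-6, interferon, interleukin-4 and growth hormone type bind receptors that carry JAK kinases. The kinases phosphorylate STAT proteins, which pair, enter the nucleus and activate target genes. SOCS proteins and CISH are induced by the same signal and feed back on it, by blocking the kinases or the receptor and by bringing in a ubiquitin ligase. IL-1β itself signals through MyD88, IRAK-4 and NFκB and not through JAK kinases, but many cells that receive it secrete IL-6 and related cytokines, which do.

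Expression is given as the variance-stabilized log2 values deposited by the authors, on which a gene with 0 reads has the value 3.43. Values of different genes are not set against each other, because they are not corrected for gene length. The reads assigned to genes, estimated from the spacing of the lowest values, were 26.7 to 36.1 M per library in the PF group and 27.0 to 33.3 M in the IL-1β/PF group. They leave out reads not assigned to a gene, so they are not the sequencing depth, for which the paper gives higher numbers. Groups were compared with limma and Benjamini-Hochberg adjustment over all tested genes, and a call needed an adjusted p below 0.05 and a log2 fold change of 1 or more in either direction. The p-values measure the spread between the 5 libraries within each group. Unless the line is named as a block, the fits leave the pairing of libraries by line unused. This includes the fits that leave out a library or a line.

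Of 12 tenocyte markers 11 are in the table, and TNMD, the gene of tenomodulin, was at the value of 0 reads in all 10 libraries. The markers made up 2.41% to 3.82% of the normalized counts in the PF group and 0.667% to 2.63% in the IL-1β/PF group, and 4 of the 10 tested were called, all lower. The summed normalized counts of 11 macrophage and leukocyte markers lay between 65.3 and 1770 in the PF group and between 277 and 2021 in the IL-1β/PF group. AIF1 and TYROBP were at 0 in all libraries, PTPRC, which encodes the pan-leukocyte protein CD45, had 3 estimated reads at the highest, and 2 of the 6 tested were called, both higher. These were CD74, the invariant chain of antigen presentation (log2 fold change 3.73, limma adjusted p = 0.00467), with 0 to 23 estimated reads per library in the PF group and 60 to 769 in the IL-1β/PF group, and CD68, a lysosomal protein gene of macrophages (1.70, adjusted p = 0.00795), with 51 to 81 and 149 to 648. CD14, a lipopolysaccharide co-receptor gene, ran from 0 to 1453 estimated reads in the PF group and from 0 to 1374 in the IL-1β/PF group and was not called. For 8 endothelial markers the sums were 232 to 707 and 44.8 to 106, and most of the PF sums was ERG, a transcription factor gene and the only called gene of the 5 tested (log2 fold change -2.68, limma adjusted p = 3.89e-04), while VWF reached 37.2 and was not called. The sums for 8 pericyte and smooth muscle markers were 29964 to 201628 and 39326 to 83117, with 3 of 8 called lower. Among all tested genes 3.11% were called higher and 3.57% lower. The part of such cells in the values below was not tested. In bulk RNA, fewer cells of a type and less RNA per cell cannot be told apart.

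STAT4 rose and SOCS2 fell in the IL-1β/PF group, and these were the called members, 2 of 9 (22.2%), against 6.68% of all tested genes (8.26% with the line as a block, 4.01% higher and 4.25% lower). STAT2 and SOCS3 were higher and STAT3 lower at an adjusted p below 0.05, but by less than the minimum fold change. With these, 5 of 9 members (55.6%) had an adjusted p below 0.05, against 15.5% of all tested genes. The 3 that were higher compare with 7.57% of all tested genes and the 2 that were lower with 7.89%. The groups did not overlap for the same 5 genes, STAT2, STAT3, STAT4, SOCS2 and SOCS3, against 12.7% of all tested genes, 6.29% with the IL-1β/PF group above and 6.41% with it below. With CISH, 6 members had the same direction in all 5 lines, against 32.7% of all tested genes. STAT5A, STAT6, SOCS1 and CISH did not pass. Over the 9 members the log2 fold changes had a median of 0.06, against -0.00628 over all tested genes. The calls of the members were the same with the line as a block. The members were listed by name with earlier results of these data known, so these shares describe the list and are not a test of it.

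**Figure D1:**
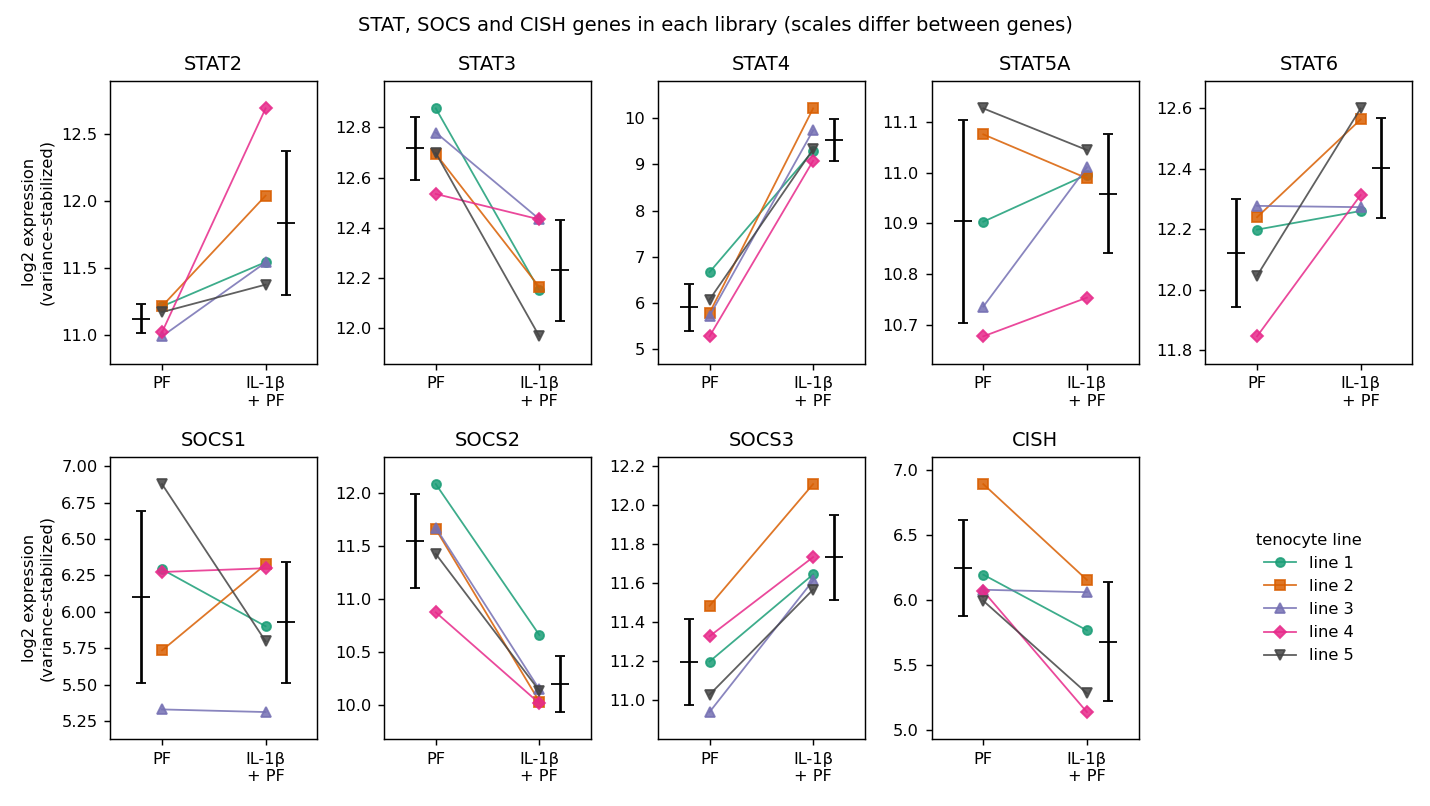
Variance-stabilized log2 expression (y axis, a scale of its own for each gene) of the 9 members in the PF and IL-1β/PF groups. Each symbol is a library, thin lines join the libraries of a tenocyte line, and the black bars are the mean and SD of 5 libraries. All 5 lines go up for STAT4, STAT2 and SOCS3 and down for SOCS2, STAT3 and CISH.

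STAT4, best known as the mediator of interleukin-12 signals in lymphocytes, changed most. In the PF group its log2 expression was 6.67 in line 1, 5.79 in line 2, 5.72 in line 3, 5.28 in line 4 and 6.08 in line 5. In the IL-1β/PF group it was 9.29, 10.21, 9.73, 9.08 and 9.32 in the same order of lines. The lowest library in the IL-1β/PF group stood 2.41 above the highest in the PF group. The mean rose from 5.91 ± 0.51 (SD, n = 5) to 9.53 ± 0.45 (SD, n = 5), and the log2 fold change was 3.62 (limma standard error, SE, 0.29, 95% confidence interval 2.99 to 4.24, limma adjusted p = 7.77e-05). In estimated reads these values correspond to 19 to 71 reads per library in the PF group and 368 to 1019 in the IL-1β/PF group. Because variance stabilization compresses low values, the log2 fold change was also computed on log2(normalized count + 1), where it was 4.15, a 17.7-fold difference against 12.3-fold on the deposited scale. STAT4 ranked 55 by log2 fold change among the 560 genes called higher. The difference within a line was lowest in line 1 (2.62) and highest in line 2 (4.42).

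STAT4 was read beside markers of lymphocytes. CD3D, CD3E, CD3G and CD2, which mark T cells, and MS4A1, which marks B cells, were at the value of 0 reads in all 10 libraries. The normalized counts of the 8 lymphocyte markers reported here summed to 0 to 3.91 in the PF group and 0 to 6.28 in the IL-1β/PF group. Of these 1 passed the filter, and limma called 0, with 0 at an unadjusted p below 0.05. Not every lymphocyte marker is reported, and the part of such cells in the STAT4 values was not tested. The receptor and subunit genes of interleukin-12 were chosen for mention after their values were seen. The receptor genes had few reads, at most 2 in any library for IL12RB1 and 9 for IL12RB2. The subunit gene IL12A was called higher (log2 fold change 1.07, limma adjusted p = 0.0495). It had 11 to 24 estimated reads per library in the PF group and 32 to 154 in the IL-1β/PF group. IL12B, the other subunit gene, had at most 2 and was not tested. A link of these genes to STAT4 was not tested. Of 4 tested genes of a list of STAT4 targets, 2 were called, both higher, against 3.11% of all tested genes. These were IRF1 (log2 fold change 1.74, limma adjusted p = 0.0189) and TBX21, the master regulator of type 1 helper T cells (1.46, adjusted p = 0.0358), with no more than 7 estimated reads per library in the PF group and 83 in the IL-1β/PF group. Leaving out single libraries or whole lines gave 15 further fits, of which 11 called fewer of this list, and 0 were called without line 1 or without line 2. IFNG, the interferon gamma gene of the list, had 0 estimated reads in every PF library and 0 to 3 in the IL-1β/PF group, and was not tested.

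STAT2 acts with IRF9 in the complex that carries type I interferon signals to the nucleus. Its log2 expression in the PF group was 11.21 in line 1, 11.22 in line 2, 10.99 in line 3, 11.02 in line 4 and 11.17 in line 5. In the IL-1β/PF group it was 11.55, 12.04, 11.54, 12.69 and 11.38. The groups did not overlap, but the values in the IL-1β/PF group were spread much more widely, with an SD of 0.54 against 0.11. This ratio of 4.95 was reached by 1.14% of all tested genes. STAT2 had a log2 fold change of 0.72 (SE 0.22, 95% confidence interval 0.24 to 1.19, limma adjusted p = 0.0461), below the minimum fold change. With the line as a block the limma adjusted p was 0.0384. The 15 leave-out fits do not use the pairing by line, and in them the adjusted p stayed below 0.05 in 3. Without line 4, which had the largest difference (1.67), the log2 fold change was 0.48 (adjusted p = 0.0559), and without line 2 the adjusted p was 0.156, the highest of these fits.

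IRF9, the DNA-binding subunit of the complex, was at 10.55 ± 0.31 (SD, n = 5) in the PF group and at 11.37 ± 0.47 (SD, n = 5) in the IL-1β/PF group. It had a log2 fold change of 0.82 (SE 0.22, limma adjusted p = 0.0287) and was not called. The difference within a line was largest in line 4 for both genes, at 1.67 for STAT2 and 1.61 for IRF9. It was smallest in line 5, at 0.21 and 0.24. Both values of a line come from the same pair of libraries, so they are not independent.

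Of 29 tested target genes of this complex, 9 were called, all higher, against 3.11% of all tested genes. With the line as a block 12 were called, all higher, against 4.01% of all tested genes. The median log2 fold change of the 29 was 0.82. IRF1, which is also in the list of STAT4 targets, is among those called. CXCL9 (log2 fold change 6.98), CXCL10 (5.70), RSAD2 (3.07) and DDX58 (1.53) had the smallest adjusted p-values, between 1.66e-04 and 0.00382 from limma. The first pair encode chemokines for T cells, RSAD2 encodes the antiviral protein viperin and DDX58 the RNA sensor RIG-I. The count lay between 5 and 10 when a library or a line was left out, and was 5 without line 1 or without line 2. IFNB1, the gene of interferon beta, chosen for mention after its values were seen, was at the value of 0 reads in all 10 libraries. Not every interferon gene is reported, and IFNG is given with the STAT4 targets.

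**Figure D2:**
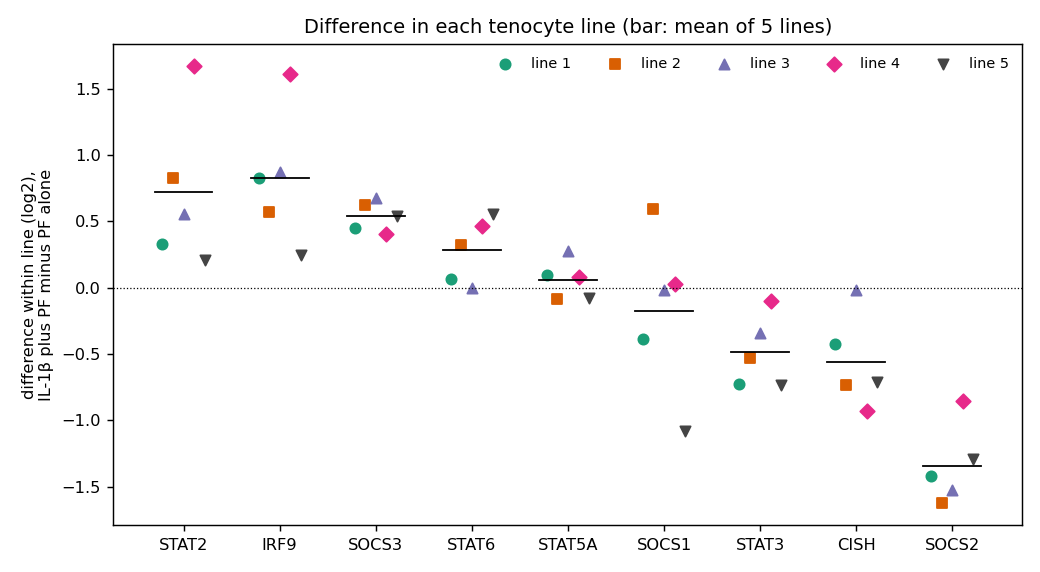
Difference in log2 expression within each tenocyte line, IL-1β/PF minus PF (y axis), for IRF9 and the members other than STAT4. Symbols are the 5 lines and bars their mean. Line 4 lies highest for STAT2 and IRF9, at 1.67 and 1.61, and STAT4, at 2.62 to 4.42, is left out of the plot for scale.

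STAT3 is the main carrier of IL-6 family signals, and it was lower in the IL-1β/PF group. Its log2 expression in the PF group was 12.88 in line 1, 12.69 in line 2, 12.78 in line 3, 12.53 in line 4 and 12.70 in line 5. In the IL-1β/PF group it was 12.15, 12.16, 12.43, 12.43 and 11.97. Every library in the IL-1β/PF group lay below every library in the PF group. The log2 fold change was -0.49 (SE 0.11, 95% confidence interval -0.73 to -0.25, limma adjusted p = 0.0134), so the interval lies within the minimum fold change. With the line as a block the limma adjusted p was 0.0192. In the leave-out fits, which do not use the pairing, it was above 0.05 in 3 of 15. It was 0.0827 without line 1, 0.0726 without line 2 and 0.0622 without line 5. The difference was smallest in line 4 (-0.10) and largest in line 5 (-0.73).

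Ligands and receptors that act upstream of STAT3 were also measured. Of 5 tested ligands of the gp130 family, which share the receptor subunit gp130, 4 were called, all higher, and in each of the 15 fits 4 were called. Among all tested genes 3.11% were called higher and 3.57% lower. IL6 was at 6.29 ± 1.83 (SD, n = 5) in the PF group and at 15.08 ± 0.77 (SD, n = 5) in the IL-1β/PF group (log2 fold change 8.79, limma adjusted p = 1.07e-04). LIF, which acts through gp130 and the LIF receptor, had a log2 fold change of 4.99, IL11 of 3.49 and CLCF1 of 1.48, with adjusted p-values from limma of 7.98e-05, 7.01e-04 and 0.00382. IL6ST, which encodes gp130 itself, was the called gene among 8 tested receptors of this family, with a log2 fold change of -1.06 (SE 0.26, limma adjusted p = 0.0200). It was lower in all 5 lines and the groups overlapped, since line 4 was at 14.37 in the IL-1β/PF group and the other lines at 12.89 to 13.32. IL6ST lost the call in 6 of the 15 fits, those without line 1, 2 or 5 or without the IL-1β/PF library of these lines, where the adjusted p reached 0.111 (without line 1) or the log2 fold change shrank to as little as -0.94 (without line 5). Without line 4 it kept the call.

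Of 18 tested genes of a list of STAT3 targets, 4 were called higher and 1 lower, with a median log2 fold change of 0.18. The shares of all tested genes were 3.11% higher and 3.57% lower. CEBPB, a transcription factor gene of acute-phase and inflammatory responses, had a log2 fold change of 1.495 (SE 0.15, limma adjusted p = 1.86e-04), and IL4R, a receptor gene for interleukin-4 and interleukin-13, of 1.11 (adjusted p = 0.00232). VEGFA, an angiogenic growth factor gene, had a log2 fold change of 1.18 (adjusted p = 0.0384) and LRG1, a secreted glycoprotein gene, of -2.24 (adjusted p = 0.0274). The number called in this list was between 1 and 5 when a library or a line was left out, with 1 called without line 5 or without its library in the IL-1β/PF group. VEGFA lost the call in 12 of the 15 fits, LRG1 in 9 and IL4R in 2, while CEBPB kept it in all. HIF1A (0.70, limma adjusted p = 0.0125) and PIM1 (-0.54, adjusted p = 0.0440), chosen for mention after their values were seen, had adjusted p-values below 0.05 without reaching the minimum fold change.

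STAT5A, which carries signals of growth hormone, prolactin and several interleukins, ranged from 10.68 to 11.13 in the PF group and from 10.75 to 11.04 in the IL-1β/PF group. The groups overlapped, with 3 lines higher and 2 lower. Its log2 fold change was 0.06 (SE 0.11, limma adjusted p = 0.786), and the 95% confidence interval of -0.18 to 0.29 leaves out changes of the size seen for STAT4 and SOCS2. The STAT5A and STAT5B genes are close paralogs between which reads can be shared, and STAT5B was not analysed here. Of 10 tested genes of a list of STAT5 targets, 1 was called, IGFBP5, a binding protein gene for insulin-like growth factors (log2 fold change 1.70, limma adjusted p = 0.0457), which lost the call in 11 of the 15 leave-out fits. The median of this list was 0.36, and its 1 called gene of 10 compares with 6.68% of all tested genes.

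STAT6, the mediator of interleukin-4 and interleukin-13, ranged from 11.85 to 12.28 in the PF group and from 12.26 to 12.60 in the IL-1β/PF group, higher in 4 of 5 lines. The ranges overlapped slightly, with line 1 and line 3 nearly the same in both groups. STAT6 had a log2 fold change of 0.28 (SE 0.11, 95% confidence interval 0.04 to 0.52, limma adjusted p = 0.117), which did not pass the adjustment. Of 10 tested STAT6 targets, 2 were called without the line as a block and 4 with the replicate block, all higher. The shares of all tested genes called higher were 3.11% and 4.01%. The 2 were IL4R and IL13RA2, a decoy receptor gene for interleukin-13, which had a log2 fold change of 3.12 (SE 0.46, limma adjusted p = 0.00156). Both are also counted among the receptors outside the gp130 family, and IL4R among the STAT3 targets, so these lists are not independent. The count was 1 without line 5 or without its library in the IL-1β/PF group, and 4 without the library of line 3 in the IL-1β/PF group.

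SOCS2, the feedback inhibitor of growth hormone signals, fell. In the PF group its log2 expression was 12.08 in line 1, 11.66 in line 2, 11.67 in line 3, 10.87 in line 4 and 11.43 in line 5. In the IL-1β/PF group it was 10.66, 10.03, 10.15, 10.02 and 10.14. The groups did not overlap, and line 1 was the highest library in both. The mean fell from 11.54 ± 0.44 (SD, n = 5) to 10.20 ± 0.26 (SD, n = 5), and the log2 fold change was -1.34 (SE 0.21, 95% confidence interval -1.79 to -0.89, limma adjusted p = 0.00184), which is 0.394 of the level in the PF group. SOCS2 ranked 380 by size of decrease among the 642 genes called lower. The difference was smallest in line 4 (-0.86), which had the lowest SOCS2 in the PF group, and largest in line 2 (-1.62). The call held in all 15 leave-out fits, with log2 fold changes between -1.51 and -1.21. GHR, the growth hormone receptor gene, fell by 1.32 on the log2 scale (SE 0.19, limma adjusted p = 0.00136) and EPOR, the erythropoietin receptor gene, by 1.53 (SE 0.22, adjusted p = 0.00137), each in 5 of 5 lines. They were the 2 genes called lower among 23 tested receptors outside the gp130 family, of which 5 were called higher. A link of these receptors to SOCS2 was not tested.

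CISH, which also answers to STAT5 and growth hormone type receptors, had a lower mean in the IL-1β/PF group that did not pass the test. It ranged from 5.99 to 6.89 in the PF group and from 5.14 to 6.15 in the IL-1β/PF group. All 5 lines were lower, by between 0.02 in line 3 and 0.93 in line 4, and the groups overlapped. The log2 fold change was -0.56 (SE 0.27, 95% confidence interval -1.15 to 0.02, limma adjusted p = 0.183, and 0.0684 with the replicate block). These values rest on 36 to 74 estimated reads per library in the PF group and 12 to 45 in the IL-1β/PF group.

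SOCS3, which binds gp130 and restrains STAT3, was higher in every line. In the PF group its log2 expression was 11.20 in line 1, 11.48 in line 2, 10.94 in line 3, 11.33 in line 4 and 11.03 in line 5. In the IL-1β/PF group it was 11.64, 12.11, 11.61, 11.73 and 11.57. The groups did not overlap, and line 2 was the highest library in both. SOCS3 had a log2 fold change of 0.54 (SE 0.13, 95% confidence interval 0.25 to 0.83, limma adjusted p = 0.0194), so the interval lies below the minimum fold change. With the replicate block the adjusted p was 0.00345. The 5 differences within lines lay between 0.41 and 0.67, with an SD of 0.11, the narrowest spread of the 9 members. The adjusted p was above 0.05 in 3 of the 15 fits, at 0.0521 without the PF library of line 5, 0.0735 without line 1 and 0.0652 without line 5.

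SOCS1, the inhibitor of interferon signals that blocks JAK kinases directly, did not pass the test, and its lines went both ways. It ranged from 5.33 to 6.88 in the PF group and from 5.31 to 6.33 in the IL-1β/PF group, with 2 lines higher and 3 lower. Differences within lines ran from -1.08 in line 5 to 0.59 in line 2. The log2 fold change was -0.17 (SE 0.31, limma adjusted p = 0.763), and its sign turned without line 5 (0.0518). The 95% confidence interval of -0.86 to 0.51 is the widest of the 9 members, on 16 to 93 estimated reads per library.

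**Figure D3:**
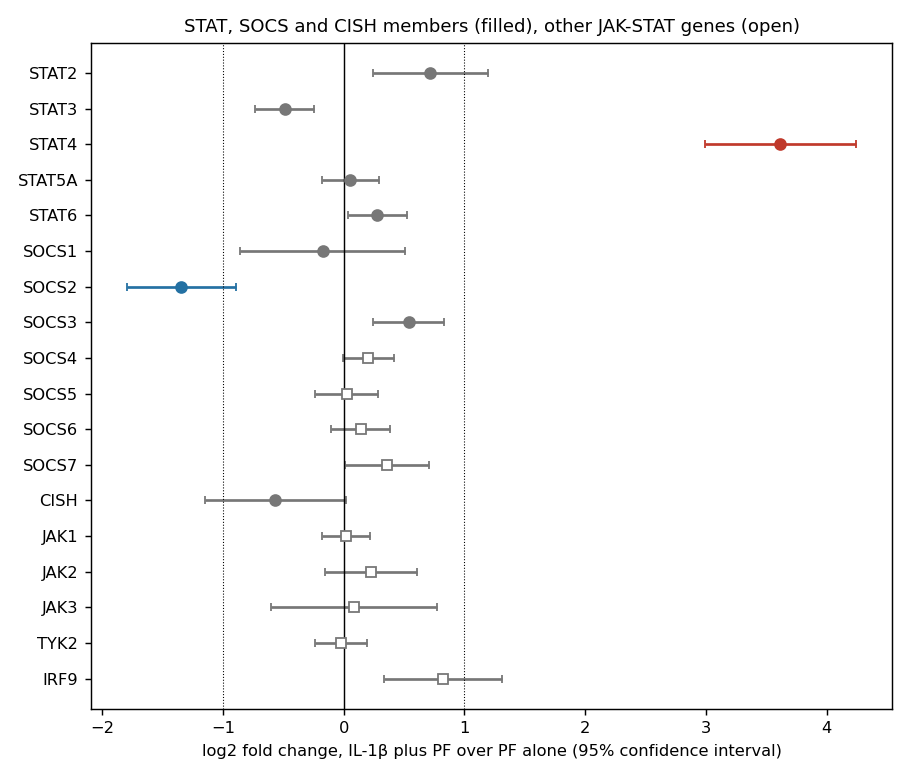
Log2 fold change of IL-1β/PF over PF (x axis) with its 95% confidence interval from limma, for the 9 members (filled circles), SOCS4 to SOCS7, the JAK kinases and IRF9 (open squares). Red marks genes called higher and blue genes called lower, and dotted lines mark the minimum fold change. STAT4 at 3.62 and SOCS2 at -1.34 are the called genes among those plotted.

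None of the other SOCS genes or the JAK kinases was called. SOCS4, SOCS5, SOCS6 and SOCS7 had log2 fold changes of 0.20, 0.02, 0.14 and 0.36, and their limma adjusted p-values ran from 0.154 to 0.919. The log2 fold change of SOCS5 took the opposite sign under quantile normalization (-0.0136). JAK1 had a log2 fold change of 0.02, JAK2 of 0.23, JAK3 of 0.09 and TYK2 of -0.02, and 0 of these 4 kinases were called by limma, with 0 at an unadjusted p below 0.05. The signs for JAK1, JAK3 and TYK2 are not stable, and that of JAK1 turned under quantile normalization (-0.0116) and that of TYK2 under centring on the median (0.00913). The 95% confidence intervals of JAK1 (-0.18 to 0.22), JAK2 (-0.15 to 0.61) and TYK2 (-0.24 to 0.20) leave out a change of the minimum fold size, and that of JAK3 is wider (-0.60 to 0.78), at no more than 61 estimated reads per library. JAK2 was at 12.17 in line 4 in the IL-1β/PF group and between 11.14 and 11.42 in the other lines. The 6 genes listed for the ubiquitin ligase that SOCS proteins recruit, not all of them its subunits, had log2 fold changes between -0.15 and 0.23. Of these 6, 0 were called by limma, with 0 at an unadjusted p below 0.05.

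Of 13 tested inhibitors of STAT signalling other than SOCS genes, 2 were called, both lower, DUSP22, a phosphatase gene (log2 fold change -1.06, limma adjusted p = 0.0229), and PDLIM2, a ubiquitin ligase gene (-1.05, adjusted p = 0.0475). Leaving out a library or a line gave between 0 and 2, and DUSP22 lost the call in 7 of the 15 fits and PDLIM2 in 12. Of 11 tested ligands outside the gp130 family, 5 were called, all higher. CSF3, the granulocyte growth factor gene, had a log2 fold change of 7.86, TSLP of 2.97 and IL15 of 1.77, with adjusted p-values from limma of 1.50e-04, 0.00430 and 0.00473, and these 3 held in all 15 fits while the count was 3 in 12 of them. IL12A, also among the called ligands, was therefore not called in those 12. Of 23 tested receptors outside the gp130 family, 5 were called higher and 2 lower, with between 5 and 7 called in the 15 fits. Over all these pathway lists together, with each gene counted once, 34 of 133 tested genes were called, 28 higher and 6 lower. The count was 18 without line 1, 19 without line 2 and 22 without line 5. The share of all tested genes called higher was 3.11% and lower 3.57%.

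**Figure D4:**
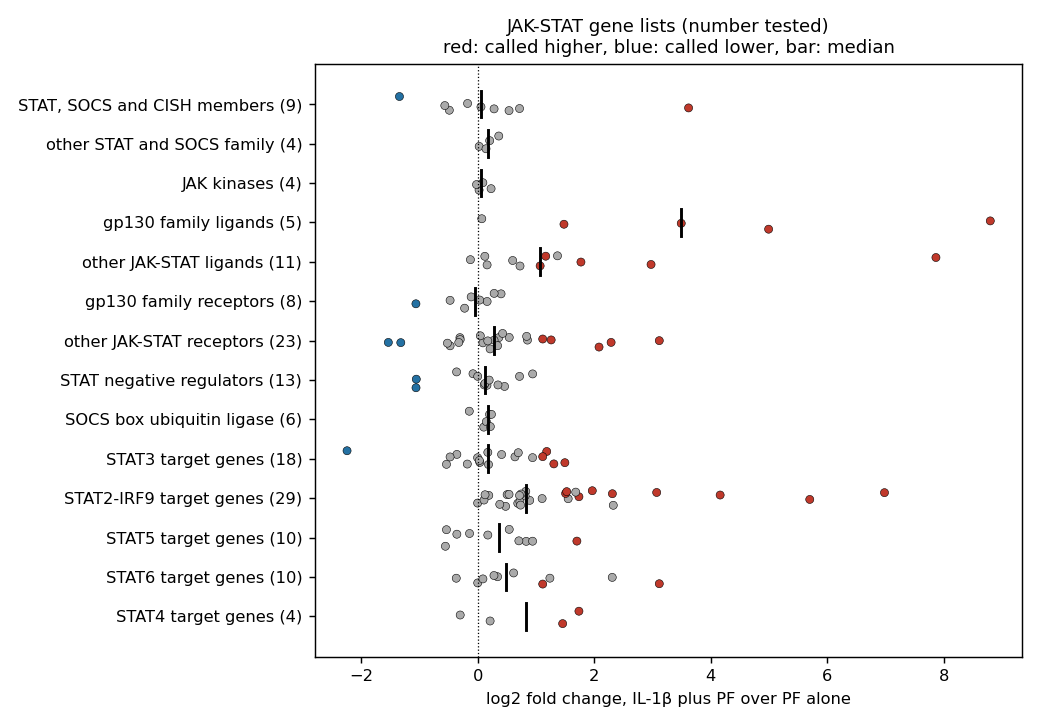
Log2 fold change of IL-1β/PF over PF (x axis) for each tested gene of the 9 members and of the lists of JAK-STAT genes, with the number tested in parentheses. Points are genes, red if called higher, blue if called lower and grey if not called, and black bars are medians. The medians run from -0.04 for gp130 family receptors to 3.49 for gp130 family ligands.

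The genes whose values ran most closely with the called members over the 10 libraries included SHOC2 and BHLHE41 for STAT4, with Pearson correlations of 0.982 and 0.978, and VPS36, FRA10AC1 and LGALS3 for SOCS2, with 0.975, 0.967 and 0.963. These correlations are largely set by the difference between the groups. On deviations from the group means they were 0.890 and 0.690 for STAT4 and 0.858, 0.861 and 0.806 for SOCS2. They were picked from the highest among the tested genes that have a symbol, share the same libraries, and describe these 10 libraries only.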

How the data were processed

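RNA sequencing libraries of 5 equine tenocyte lines were analysed, 1 of each line with PF-06650833 alone and 1 with IL-1β plus PF-06650833. The submitters' notes name FastQC 0.11.9, Salmon 1.8, DESeq2 1.36 and the EquCab3.0 build, and the methods name a correction for GC bias and tximport. The authors deposited log2 values, whose shared lowest value of 3.43 and non-whole spacing mark them as variance-stabilized. The transformation is not given in the sources used here, and it was inverted from its value at 0 reads to obtain normalized counts and estimated reads, which are approximate: a whole number of reads, with a tolerance of 0.15, fitted 69.7% to 86.0% of low values, where even spacing would give 30%. The inverted values served for an alternative scale, and not for the tests.

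Genes that exceeded this floor in 5 or more of the 10 libraries were fitted with limma 3.58.1 in R 4.3.3, with a mean-variance trend and no term for the line, as the methods name none. The alternative with the line as a block rests on the line names in the labels. Libraries of the same line deviated together from their group means (correlations across genes of 0.367 to 0.506 over 5 pairs, against -0.266 to 0.087 for different lines). No pair of libraries was identical. Named were the 9 members, of each list up to 4 called genes (or tested genes where none was called) with the smallest adjusted p, and IL6, IL6ST, IRF9, the JAK kinases and SOCS4 to SOCS7. Some genes that these rules or lists hold are not reported here. The most similar genes were the 3 with the highest Pearson correlation. The members and lists were chosen with earlier results of these data known. Gene names were used as deposited. No sequences or positions are given, since no genome of this build was used here.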

Additional observations from a re-analysis of the deposited data

Results flagged for a closer look

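A library stood apart from the other 4 of its group, by Dixon's criterion for 5 values, in 8 of 94 groups tested (the members and the other named genes), where chance gives about 4.7, or 1 in 20. Among the members, STAT5A was at 10.75 in line 4 in the IL-1β/PF group, against 10.99 to 11.04 in the other lines. SOCS2 was at 10.66 in line 1 in the IL-1β/PF group, against 10.02 to 10.15. CISH was at 6.89 in line 2 in the PF group, against 5.99 to 6.19. Line 4 also stood apart in the IL-1β/PF group in JAK2 (12.17, against 11.14 to 11.42) and IL6ST (14.37, against 12.89 to 13.32). CEBPB differed in line 3 in both groups, at 13.26 in the PF group (against 12.67 to 12.82) and at 13.92 in the IL-1β/PF group (against 14.39 to 14.48). DDX58 was at 10.56 in line 1 in the PF group, against 9.90 to 10.02.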

How the results depend on the processing

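STAT4 and SOCS2 were called under each of the 28 alternatives run, with adjusted p-values from limma up to 0.00123 and 0.0191, and 7 of the 9 members kept their direction in all of them. Some alternatives cannot turn a direction. Other thresholds, gene filters, the trend setting and the replicate block on the deposited values leave the log2 fold change as it was. Dropping the minimum fold change also cannot lose a call. What caused the following changes was not tested. With no minimum fold change, STAT2 (0.72), STAT3 (-0.49) and SOCS3 (0.54) were also called, with and without the replicate block, so that 5 members were. Without a minimum, 2782 genes were called (1362 higher, 1420 lower), with the stricter limit of 0.01 on the adjusted p 719 (345 up, 374 down) and 19 pathway genes, with the replicate block on log2(normalized count + 1) 1809 (891 higher), and with the replicate block and no minimum, an alternative chosen after the data were seen, 3996 (1969 higher, 2027 lower) and 56 pathway genes, against 1202 (560 higher, 642 lower) and 34. The replicate block alone gave 1486 genes and changed no call of a member. When a library or a line was left out, all genes called ranged from 762 to 1422 (356 to 647 higher, 389 to 775 lower), pathway genes from 18 to 34, and members stayed at 2. Leaving out a line also removes 2 libraries. In these fits the log2 fold change ranged for STAT5A from -0.00155 to 0.11, for SOCS1 from -0.37 to 0.0518, for JAK3 from -0.0784 to 0.31, for JAK1 from -0.0169 to 0.0627, for TYK2 from -0.0938 to 0.0276 and for SOCS5 from -0.0404 to 0.10. Signs also turned for JAK3 (-0.10) and SOCS5 (-0.00523) with array weights, for JAK1 (-0.0116) and SOCS5 (-0.0136) under quantile normalization, and for TYK2 (0.00913) with centring on the median. Of the 38 other named genes 34 kept their direction. SOCS1 and CISH had the fewest reads of the members in the IL-1β/PF group, from 12 to 53 per library, and the part of counting error in their spread was not tested.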
